A study of Saccharomyces cerevisiae with 14 samples.

Results

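Rad52 peaks near the chromosome ends of budding yeast were those that overlapped by at least 1 bp the first or the last 20 kb of a nuclear chromosome. They numbered 345 of the 7176 nuclear peaks in 14 lists, with 5 further peaks on mitochondrial DNA left aside. The windows span 640 kb, or 5.30% of the nuclear genome, and held 4.81% of the peaks. The rule used position alone, not score or group.

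Rad52 was mapped by chromatin immunoprecipitation and sequencing, as a readout of damage linked to DNA-RNA hybrids, and each library was deposited as its own peak list. Sen1-AID and Top1-AID were each joined with h1D-h2D in a group of 2 libraries, and these 4 libraries are called the combined mutants. The name h1D-h2D was read as lacking the RNase H genes RNH1 and RNH201, which the design names. AID marks a protein that auxin causes to be degraded, here the helicase Sen1 or the topoisomerase Top1. The genotype field of the h1D-h2D Top1-AID libraries says Top1 without AID, while their titles carry AID. The h1D-h2D and Sen1-AID groups had 2 libraries each, Top1-AID had 1 and WT had 2. All 11 of these libraries, WT included, are labelled strain 288C and auxin, given at 0.5 µM for 4 h. Gal-HO galactose, with 2 libraries at 2% galactose, and Gal-HO dextrose, with 1, came from the JKM background without auxin. Gal-HO cells make the HO endonuclease in galactose. Strain and treatment therefore cannot be told apart between Gal-HO and auxin libraries.

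Telomeres are the protected ends of chromosomes, and the subtelomeres beside them hold X elements at every end and Y' elements at some. A Y' element carries a gene for a helicase-like protein, the YRF1 family, and its copies are nearly identical. Telomeric repeats are transcribed into TERRA, an RNA that can pair with telomeric DNA and that RNase H removes, and Rad52 is needed for recombination that lengthens Y' arrays when telomerase is lost. How reads that match several copies were placed is not given in the sources used here. A peak at 1 Y' copy may therefore hold signal from another, and single copies are uncertain.

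The whole lists held 254 to 305 nuclear peaks in the combined mutants, 454 to 731 in the other auxin libraries and 544 to 637 in the Gal-HO libraries. Read depth is unknown. Whether a control library was used is not stated, so background signal and Rad52 binding cannot be told apart.

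End peaks were few in the combined mutants. There were 3 and 4 in h1D-h2D Sen1-AID, then 10 and 2 in h1D-h2D Top1-AID. The h1D-h2D libraries had 34 and 32, the Sen1-AID libraries 41 and 13, the Top1-AID library 35 and the WT libraries 38 and 33. No combined-mutant library reached the lowest of the 7 others, Sen1-AID replicate 2. The means were 4.75 ± 3.59 end peaks in the combined mutants (SD, n = 4) and 32.3 ± 9.05 in the other auxin libraries (SD, n = 7). The difference of -27.5 had an exact two-sided permutation p of 0.00303, the smallest that 330 splits allow, and an adjusted p of 0.00606. These splits take replicates of a strain as independent, so they do not cover spread between strains.

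Covered length and the number of ends reached followed the same order. Peaks covered 9.37 ± 8.38 kb of the windows in the combined mutants and 61.8 ± 21.4 kb in the other auxin libraries (adjusted exact permutation p 0.00606). A peak touched 4 ± 2.16 of the 32 ends in the combined mutants and 20 ± 4.16 in other auxin libraries (adjusted exact permutation p 0.00606). End peaks were also a smaller share of the list, at 1.67 ± 1.27% in combined mutants and 5.25 ± 1.11% in other auxin libraries (adjusted exact permutation p 0.00970). Here the groups overlapped: h1D-h2D Top1-AID replicate 1 had 3.55% (exact 95% interval 1.71 to 6.42) and Sen1-AID replicate 2 had 2.86% (1.53 to 4.85). These calls did not hold with only the 254 highest-scoring peaks of each list, where the number differed by -6.64 (adjusted exact permutation p 0.0768). With h1D-h2D Top1-AID alone set against the 7 others, the number differed by -26.3 (adjusted exact permutation p 0.0556).

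**Figure D1:**
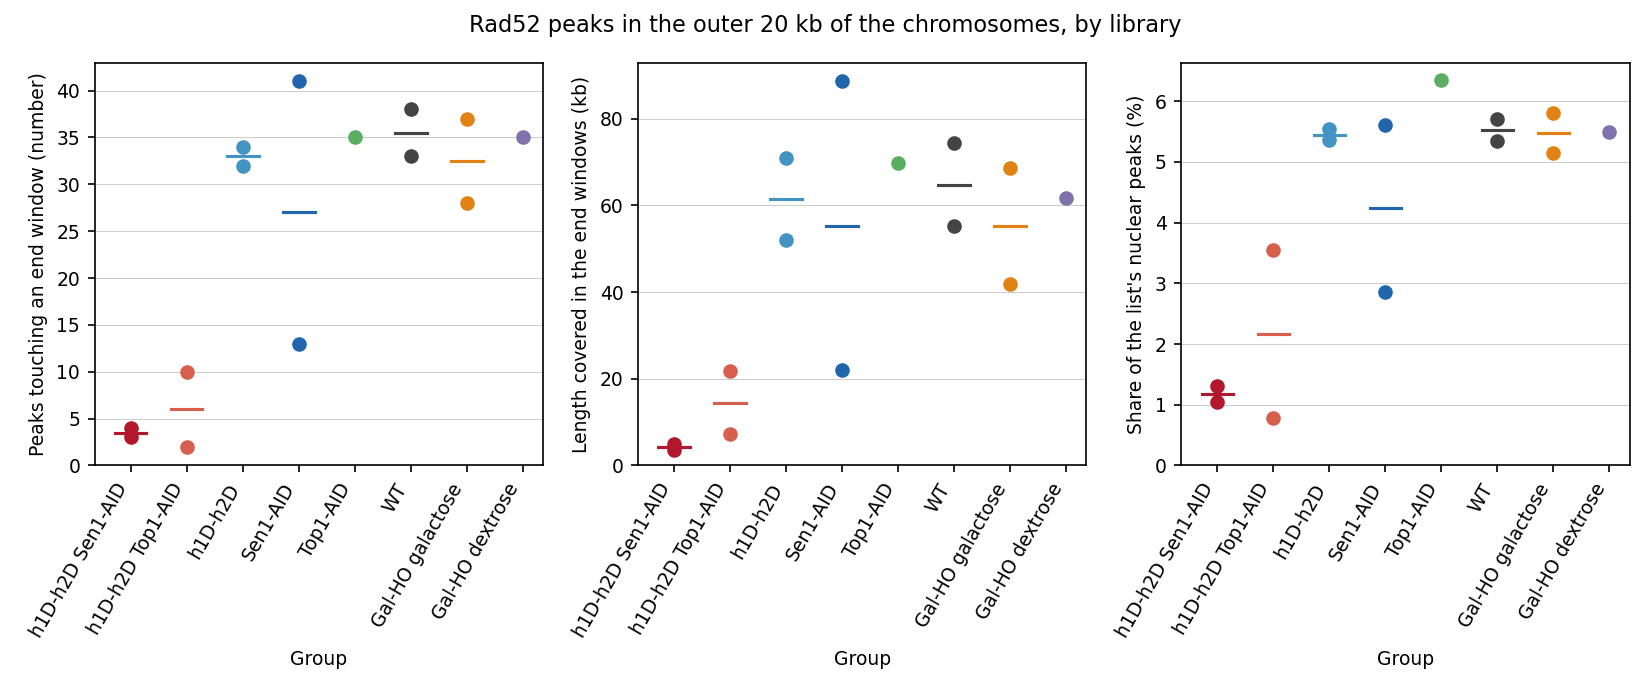
Number of end peaks, length they cover in kb and their percentage of each list's nuclear peaks, by group, with 1 point per library and a line at the mean of groups with 2. The 4 combined-mutant libraries hold 2 to 10 end peaks and the 7 other auxin libraries 13 to 41.

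The end peaks of the combined mutants did not differ detectably in rank within the list or in width. Rank was taken as the percentile of the authors' score within a list, since the score has no stated scale. The median percentile of end peaks averaged 44.0 ± 17.0 in the combined mutants and 44.8 ± 13.6 in the other auxin libraries (adjusted exact permutation p 0.948). The median width averaged 1881 ± 1179 bp in combined mutants and 1591 ± 257 bp in other auxin libraries (adjusted exact permutation p 0.793). These medians rest on 2 to 10 peaks in each combined-mutant library. The median distance from the end averaged 7022 ± 3543 bp in combined mutants and 3967 ± 564 bp in other auxin libraries (adjusted exact permutation p 0.0242). Without h1D-h2D Top1-AID replicate 2, whose 2 peaks had a median distance of 11964 bp, that difference was 1407 bp (adjusted exact permutation p 0.0667). Without h1D-h2D Sen1-AID replicate 2 it was 3038 bp, with the same adjusted p.

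Sorted by RNase H genotype, the libraries did not pass the test. The 6 libraries without RNase H, combined mutants included, had 14.2 ± 14.9 end peaks, and the 5 with RNase H had 32 ± 11.05 (adjusted exact permutation p 0.0736). End peaks were 2.93 ± 2.18% of the list without RNase H and 5.18 ± 1.34% with it (adjusted exact permutation p 0.0736). The 2 libraries of h1D-h2D alone, at 34 and 32, lay within 1 peak of the WT range of 33 to 38. Leaving out Sen1-AID replicate 2 gave a difference of -22.6 (adjusted exact permutation p 0.0286), and leaving out h1D-h2D replicate 1 or 2 also brought the adjusted p under 0.05. An exact permutation test between groups of 2 has a smallest p of 0.333, so single mutants were not tested against WT.

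The Gal-HO libraries had 28 and 37 end peaks in galactose and 35 in dextrose. A peak touched 20 and 24 ends in galactose and 24 in dextrose. The galactose range included the dextrose value in both measures.

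Ends with a Y' gene carried much of the signal. Of the 32 ends, 17 have an annotated Y' gene, and all 17 had a peak in at least 1 library, against 12 of the 15 other ends. The left end of VII and the right ends of IX and XI had none. Averaged over 14 libraries, 69.7% of Y' ends and 27.6% of other ends carried a peak. The difference of 42.1 ± 22.5 percentage points (SD, n = 14) was positive in all 14 libraries, with an exact sign-flip permutation p of 0.000122, the smallest that 16384 arrangements allow. Here and in the tests of ends against the rest, the flips take replicates of a group as independent. A Y' end may also show a peak from reads of another copy, so the share of Y' ends with a peak may be raised. Peaks on a Y' gene made up 169 of the 345, or 49.0%. A peak at a Y' end need not lie on a Y' gene. Both h1D-h2D Sen1-AID libraries and h1D-h2D Top1-AID replicate 2 had 0 end peaks on a Y' gene, so the difference in those libraries comes from peaks elsewhere in the windows.

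**Figure D2:**
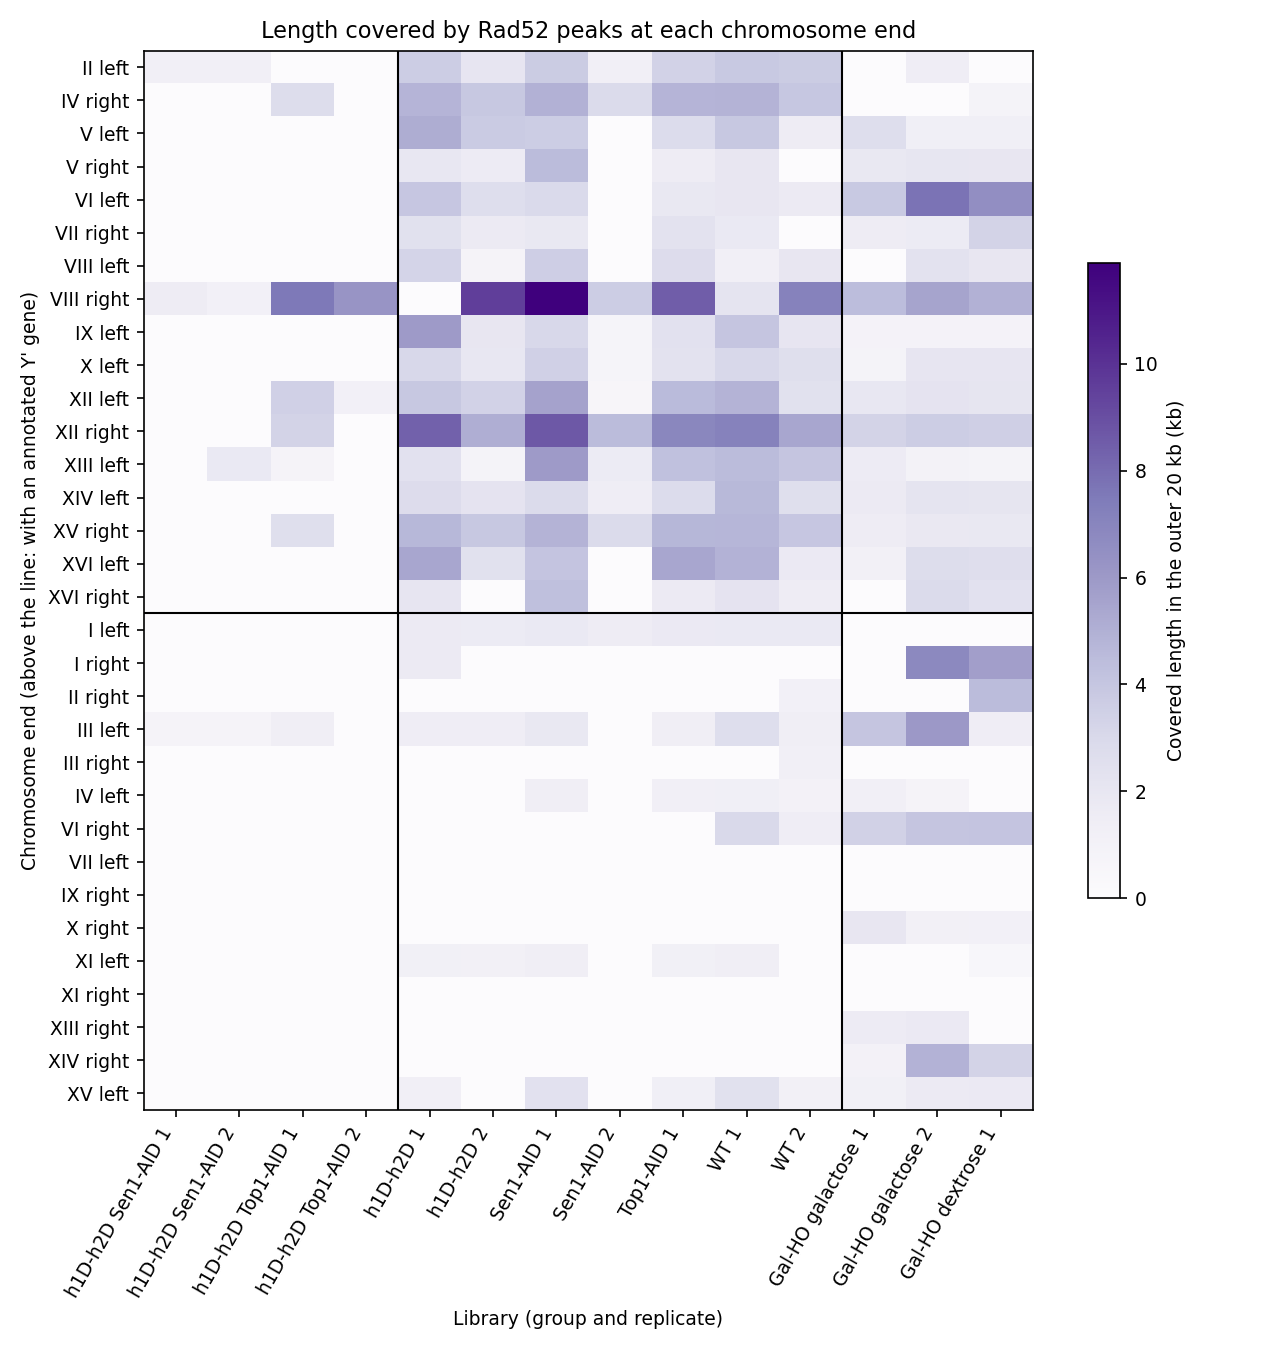
Length in kb covered by peaks in the outer 20 kb of each of the 32 chromosome ends (down) in each of the 14 libraries (across), with the 17 Y' ends above the line. The 4 combined-mutant columns are blank at most ends, and VIII right and III left each carry a peak in 3 or more of them.

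Averaged over all libraries, the 20 kb windows were less covered than the rest of the genome. Peaks covered 7.17% of the windows and 9.68% of the rest, lower at the ends in 13 of 14 libraries, Top1-AID being the exception (adjusted exact sign-flip permutation p 0.000977). Peak density was 3.85 per 100 kb in the windows and 4.27 in the rest (adjusted exact permutation p 0.326), higher at the ends in 8 libraries and lower in 6. The sets of libraries differed here: density was 0.742 ± 0.562 at the ends and 2.42 ± 0.179 in the rest in the combined mutants (lower at the ends in 4 of 4), against 5.04 ± 1.41 and 5.01 ± 0.705 in the other auxin libraries (higher in 6 of 7). End peaks had a median width of 1644 bp and other peaks 1885 bp, averaged over libraries (adjusted exact permutation p 0.327). Without h1D-h2D Top1-AID replicate 2, which has 2 end peaks, the difference was -432 bp (adjusted exact permutation p 0.000977). The median percentile was 46.4 at the ends and 50.3 elsewhere (adjusted exact permutation p 0.327). With windows of 10 kb the difference in covered share was 1.51 percentage points in the other direction (adjusted exact permutation p 0.229), and density was higher at the ends by 2.04 per 100 kb (adjusted exact permutation p 0.0300). This pooled value again joins sets that differ. The outer 10 kb was covered for 1.55 ± 1.86% in the combined mutants, where the rest was at 5.87 ± 1.14%, lower at the ends in 4 of 4. It was covered for 15.97 ± 5.30% in the other auxin libraries, where the rest was at 11.1 ± 3.05%, higher at the ends in 7 of 7. In the Gal-HO libraries it was 12.1 ± 3.21%, with the rest at 10.6 ± 1.83%, higher in 2 of 3. With the Y' ends left out, density in the 20 kb windows was lower than in the rest by a difference of -2.51 per 100 kb (adjusted exact permutation p 0.000122).

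Cover of Y' ends by distance differed between the sets of libraries. In the outer 5 kb of Y' ends they covered 1.40 ± 2.81% in the combined mutants, 20.2 ± 8.44% in the other auxin libraries and 10.9 ± 3.83% in the Gal-HO libraries. From 5 to 10 kb they covered 3.58 ± 3.75% in the combined mutants, 32.3 ± 9.44% in the other auxin libraries and 23.8 ± 3.73% in the Gal-HO libraries. From 10 to 15 kb cover was lower in both other sets, at 5.99 ± 2.72% in the other auxin libraries and 2.51 ± 0.326% in the Gal-HO libraries, with 2.17 ± 2.21% in the combined mutants. From 15 to 20 kb it was 3.02 ± 2.43% in the combined mutants, 5.83 ± 3.51% in the other auxin libraries and 5.16 ± 1.56% in the Gal-HO libraries. Cover was highest between 5 and 10 kb in all 3 sets on average, but in the combined mutants the 4 distances differed by less than the spread between libraries.

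**Figure D3:**
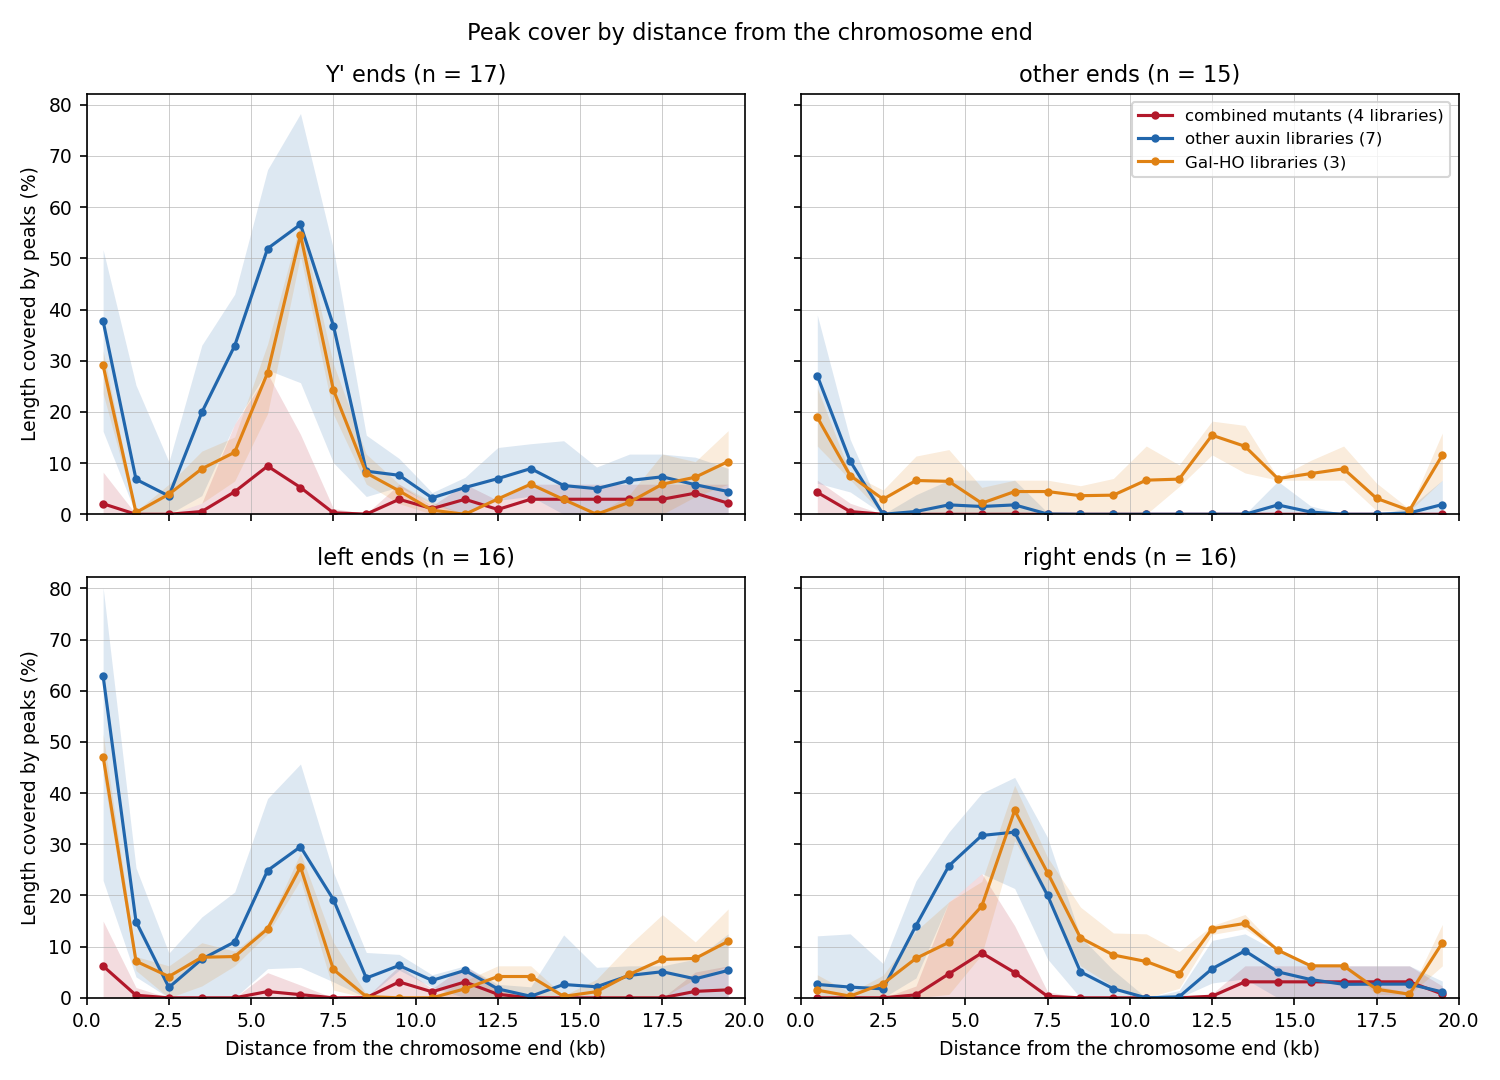
Percentage of length covered by peaks in steps of 1 kb from the chromosome end, at Y' ends, other ends, left ends and right ends, with the mean as a line and the range over libraries shaded. At Y' ends the other auxin libraries average 32.3% between 5 and 10 kb, and the combined mutants 3.58%.

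Left and right ends differed at the very last bases. Of 92 peaks that reached the last base of a chromosome, 91 lay at left ends, on 13 of the 16, and 1 lay at a right end, that of III. These 92 peaks had a median width of 1021.5 bp, against 1811 bp for the other 253. A peak cannot run past the last base, so the widths of the 92 may be cut short there. The median percentile of the 92 was 58.5, against 41.6 for the other 253. At Y' ends the outermost 1 kb was covered at left ends for 3.5 ± 7% in the combined mutants, 62.7 ± 18.7% in the other auxin libraries and 49.4 ± 8.09% in the Gal-HO libraries. At right Y' ends it was at 0% in the combined mutants, 2.03 ± 5.38% in the other auxin libraries and 0% in the Gal-HO libraries. Ends without a Y' gene also differed by side. Their left ends were covered for 10.7 ± 7.34% in the combined mutants, 63.1 ± 24.2% in the other auxin libraries and 43.3 ± 8.77% in the Gal-HO libraries. Their right ends were at 0%, 3.08 ± 8.14% and 2.67 ± 4.63% in these sets, in that order. The side was compared after the values were seen and was not tested, and how the assembly or the peak calling treats the 2 sides is not given in the sources used here.

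**Figure D4:**
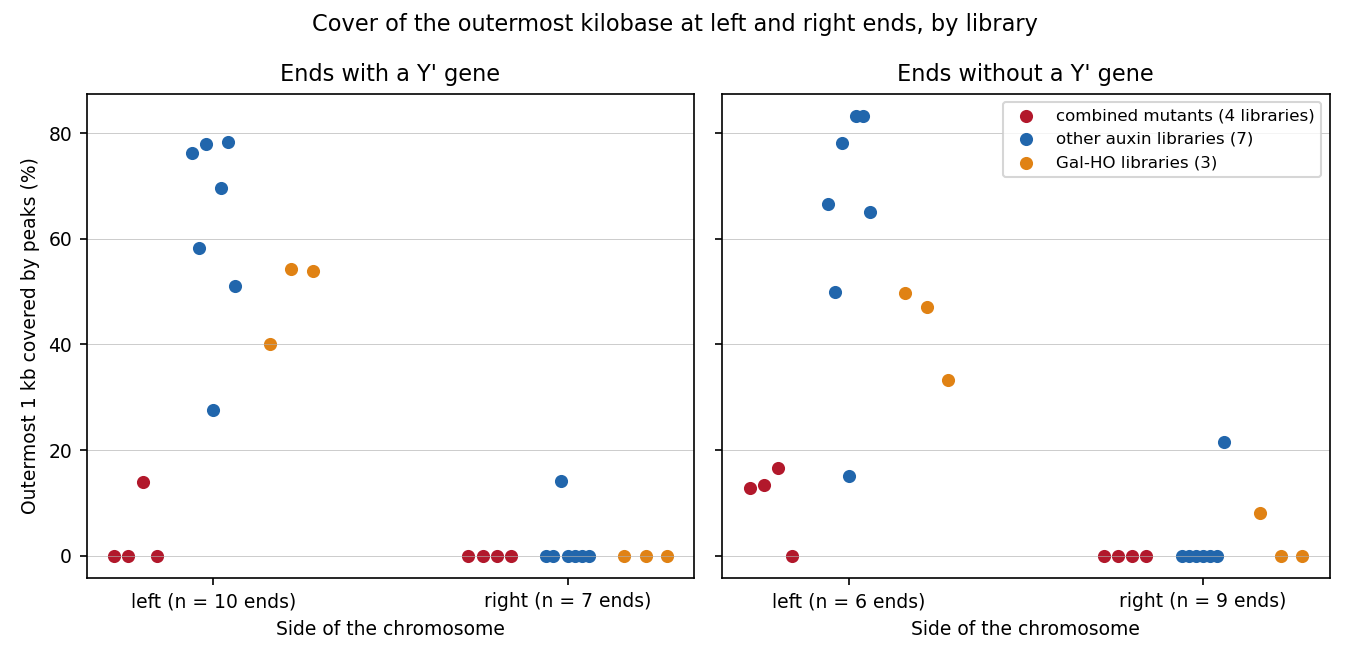
Percentage of the outermost 1 kb covered by peaks at left and right ends, with and without a Y' gene, with 1 point per library. Left Y' ends average 62.7% in the other auxin libraries and right Y' ends 2.03%. Without a Y' gene, left ends average 63.1% in these libraries and right ends 3.08%.

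Of the 8 Y' helicase genes, the h1D-h2D Sen1-AID libraries covered 0 and 0, and h1D-h2D Top1-AID covered 4 and 0. The h1D-h2D libraries covered 7 and 7, Sen1-AID 8 and 5, Top1-AID 7 and WT 7 and 6. Each Gal-HO library covered 4. A gene counts as covered here at any overlap of 1 bp or more, so these counts depend on peak edges. Peaks covered 0.0873% of YRF1-6 in Sen1-AID replicate 2 and 0.296% of the Y' frame YLL067C in h1D-h2D replicate 2, for example. Of all 33 Y' reading frames found, 1.75 ± 3.5 were covered in the combined mutants and 17 ± 4.73 in the other auxin libraries (adjusted exact permutation p 0.00606). The 7 frames covered in h1D-h2D Top1-AID replicate 1 were the only ones in the combined mutants.

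Copies of 5391 bp had peaks in the same libraries. YRF1-1, YRF1-5 and YRF1-8, each 5391 bp and at the right ends of IV, XII and XV, had peaks in the same 8 libraries: h1D-h2D Top1-AID replicate 1 and the 7 other auxin libraries. Those peaks spanned the gene start and reached a median of 2310.5, 2328 and 2350 bp into the gene. At YRF1-1 (IV 1526321 to 1531711) they covered 33.4% of the gene in h1D-h2D Top1-AID replicate 1 and 34.9 to 52.8% in the other auxin libraries. No Gal-HO peak overlapped these copies, but Gal-HO peaks ended shortly before them. At YRF1-5 they ended 259 and 111 bp before the gene start in galactose and 128 bp before it in dextrose. At YRF1-8 the gaps were 268 and 100 bp in galactose and 100 bp in dextrose, and at YRF1-1 a peak lay within 1 kb of the start in dextrose alone, with a gap of 141 bp.

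YRF1-3, YRF1-6 and YRF1-7, each 5728 bp, differed in how far their start peaks reached. Counting any overlap of 1 bp or more, they had peaks in 5, 7 and 6 of the 7 other auxin libraries, in all 3 Gal-HO libraries and in no combined mutant. Their start peaks ended a median of 261, 160.5 and 164 bp inside the gene. The shortest reach was 4 bp, at YRF1-6 in Sen1-AID replicate 2, so these counts and the contrast with the 5391 bp copies in Gal-HO libraries rest on small shifts of peak edges. YRF1-4 (XII 1067087 to 1071235) was covered in 11 libraries, always at its far end, and YRF1-2 in Sen1-AID replicate 1 alone. YIL177C and YJL225C, each 5665 bp, were covered in 7 of 7 other auxin libraries, 3 of 3 Gal-HO libraries and 0 of 4 combined mutants.

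**Figure D5:**
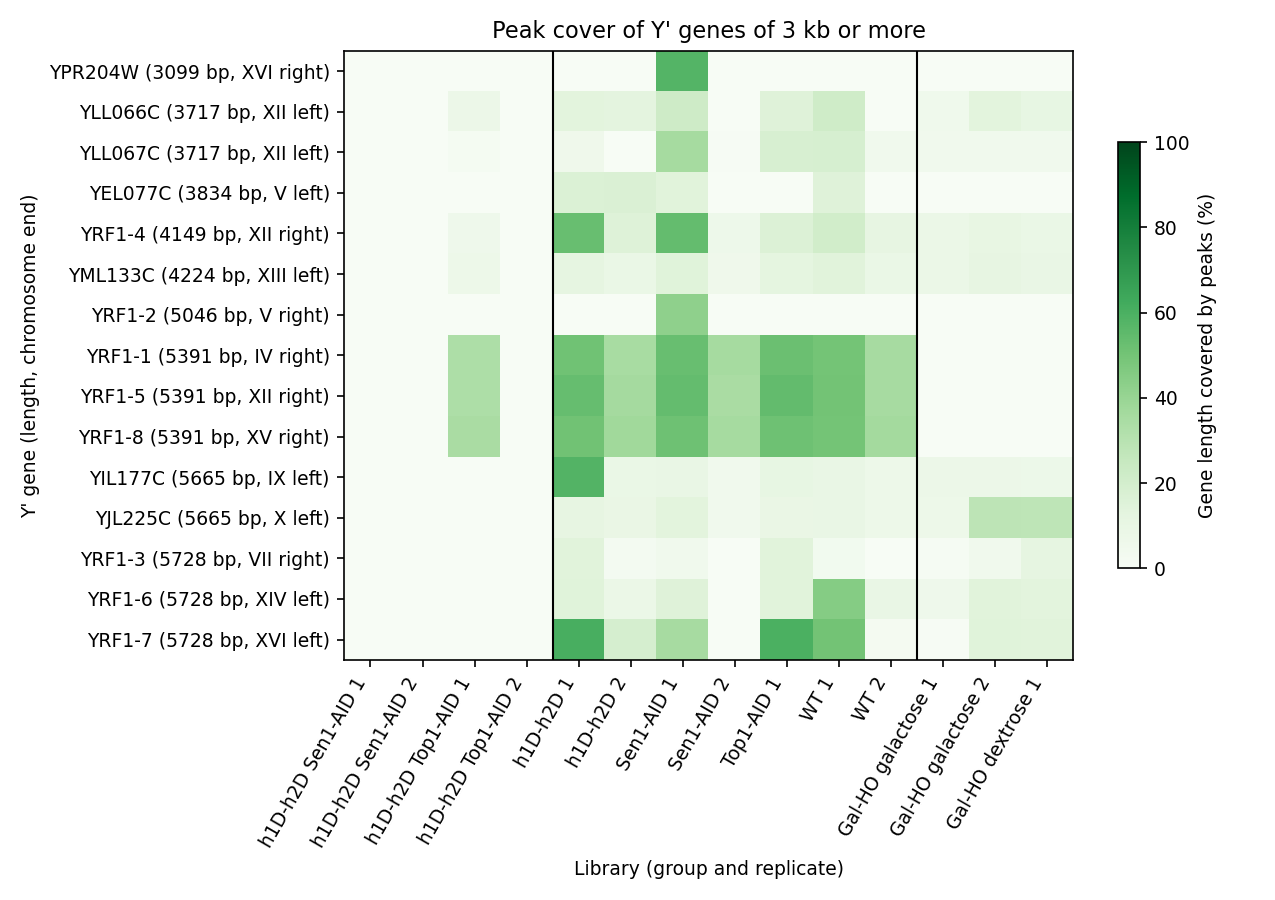
Percentage of the length of each of 15 Y' genes of 3 kb or more covered by peaks, in each of the 14 libraries. The 5391 bp copies are covered in 1 combined-mutant library and 7 other auxin libraries, and Gal-HO peaks beside YRF1-5 and YRF1-8 end 100 to 268 bp before the gene start.

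Merging the peaks of the 11 auxin libraries gave 853 regions, of which 47 touched an end window. Fisher's exact test with Benjamini-Hochberg adjustment called 5 of the 47 (10.6%) less often present in the combined mutants. This share was close to the background, 8.56% of all regions. Without adjustment it was 19 of 47, or 40.4%, against 23.2% of all regions. None of the 47 was more often present in the combined mutants at an unadjusted p under 0.05, against 0.117% of all regions. Among the 11 end regions present in all 7 other auxin libraries, the same 5 were in no combined mutant, or 45.5% against 20.5% of all such regions. That share restates the adjusted calls over fewer regions and is no separate result. The call rests on the smallest p this design gives: the adjusted p was 0.0354 for each of the 5, and 0 calls were left without any 1 of the 4 combined-mutant, 2 h1D-h2D or 2 WT libraries. Without Sen1-AID replicate 2 there were 13.

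The 5 regions had a peak in 7 of 7 other auxin libraries and 0 of 4 combined mutants. At the left end of I (1 to 1809), beside the seripauperin gene PAU8, percentiles were 70.0 and 43.3 in h1D-h2D, 78.9 and 28.2 in Sen1-AID, 74.8 in Top1-AID and 76.4 and 62.9 in WT. No Gal-HO library had a peak there, and 1 of the 7 peaks reached PAU8. At the left end of IX (1 to 1089), on the Y' frame YIL177C, they were 90.2 and 92.6 in h1D-h2D, 71.0 and 13.2 in Sen1-AID, 81.9 in Top1-AID and 68.5 and 49.1 in WT. Sen1-AID replicate 2 was lowest in both.

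At the left end of X (1 to 1093), on YJL225C, percentiles ran from 17.2 in Sen1-AID replicate 2 to 89.8 in h1D-h2D replicate 2. Beside YLR462W (XII 1063721 to 1066006) they ran from 16.7 in Sen1-AID replicate 2 to 79.1 in Top1-AID. At the start of YRF1-6 (XIV 5873 to 7795) they ran from 20.3 in Sen1-AID replicate 2 to 78.2 in h1D-h2D replicate 2. These 3 regions and that of IX also had a peak in all 3 Gal-HO libraries.

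A total of 12 end regions had a peak in at least 1 combined mutant, and each of them also had 1 in another auxin library. No end region was present in all 11 libraries. The last bases of III left carried a peak in 3 of 4 combined mutants, namely both of h1D-h2D Sen1-AID (percentiles 51.0 and 73.1) and replicate 1 of h1D-h2D Top1-AID (76.6). They were 94.2 and 38.1 in h1D-h2D, 6.3 in Sen1-AID replicate 1, 91.5 in Top1-AID and 86.8 and 13.0 in WT. The values overlapped between groups.

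The region of PHO12, an acid phosphatase gene, and IMD2, an IMP dehydrogenase gene, at VIII right also had a peak in 3 of 4 combined mutants and 6 of 7 others. The peaks of the combined mutants lay beyond IMD2 (VIII 554396 to 555967) and touched neither gene. Peaks touched IMD2 in 5 of the other auxin libraries and PHO12 in 2. In part this contrast rests on small shifts of peak edges. The peak of h1D-h2D Sen1-AID replicate 1 began at 555984, and that of WT replicate 1, counted as touching, at 555752. The Top1-AID peak began at 556053 and touched neither gene. Percentiles of the combined-mutant peaks were 54.5 and 15.7 for h1D-h2D Sen1-AID, with 9.2 for replicate 1 of h1D-h2D Top1-AID. At the nearby frames YHR214C-B, YHR214C-C and YHR214C-D, both h1D-h2D Top1-AID libraries had peaks, at percentiles of 92.6 and 81.5. These peaks were 6491 and 6187 bp wide, and that of replicate 2 was among the 2 end peaks of its list. There the other auxin libraries with a peak reached at most 30.3, in Top1-AID.

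A tRNA gene, YNCB0001W, with MIX23, a mitochondrial protein gene, at II left had a peak in both h1D-h2D Sen1-AID libraries (percentiles 0.52 and 10.49), in neither h1D-h2D Top1-AID library and in all 7 others (4.4 to 36.8). The other 8 regions included the YRF1-1, YRF1-4 with YRF1-5 and YRF1-8 regions, each in h1D-h2D Top1-AID replicate 1 alone among the combined mutants. At YRF1-1 its percentile was 83.0, against 50.4 to 82.4 in the other auxin libraries. The regions of YLL067C, YLL066C and YML133C, at the left ends of XII and XIII, were likewise in that library alone. A region with no gene at XII left (10596 to 12423) was in both h1D-h2D Top1-AID libraries, at percentiles 41.5 and 10.6. The region of RSC9, ERG13, PGA3 and TUB3 at XIII left was in h1D-h2D Sen1-AID replicate 2 alone.

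By mean percentile over the auxin libraries with a peak, the region of YFL066C, YFL065C and YFL064C at VI left was at 73.1. It was in no combined mutant, in 6 of the other auxin libraries and in all 3 Gal-HO libraries. The YRF1-1 region was at 72.7, IX left at 66.6, YRF1-4 with YRF1-5 at 62.6, YRF1-6 at 62.1 and I left at 62.1. X left was at 60.1, YML133C at 59.0, III left at 58.9 and the region beside YLR462W at 58.5. These 10 means were the highest, but they cover different libraries and their order depends on that: over the 6 auxin libraries with the VI left region, IX left averaged 75.5. All but I left and III left are at ends with a Y' gene.

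Each mutant was also set beside the 2 WT libraries, which all these comparisons share. Of 28 end regions in both WT libraries, 24 (85.7%) were in neither h1D-h2D Sen1-AID library, against 52.7% of all regions in both WT libraries. For h1D-h2D Top1-AID it was 20 (71.4%) against 49.8%. For h1D-h2D it was 3 (10.7%) against 2.87%, and for Sen1-AID 1 (3.57%) against 2.69%. For Top1-AID, with 1 library, it was 1 (3.57%) against 14.2%. The region of IRC7, a beta-lyase gene, at VI right was the one missing in all 3 single mutants, and its WT percentiles were 44.9 and 5.5. Of 5 end regions in neither WT library, 1 (20%) was in both h1D-h2D libraries, against 4.73% of such regions. It lay at V left 5830 to 7003 and held no gene. None of the 5 was in every library of h1D-h2D Sen1-AID (18.9% of all such regions), h1D-h2D Top1-AID (2.37%), Sen1-AID (2.96%) or Top1-AID (7.1%).

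Gal-HO libraries had end peaks of their own. Over 970 regions of all 14 libraries, 65 touched an end window, and 18 of these, or 27.7%, were in a Gal-HO library and no auxin library, against 12.9% of all regions. In all 3 Gal-HO libraries and no auxin library there were 5 of 65 (7.69%), against 4.33% of all regions. They held DSF1 with the hexose transporter gene HXT13, AGP3 with AQY3 and DAK2, RPN12 with the hexokinase gene HXK1, YJR154W, and HXT17. The gene HXT17 itself was touched in 2 libraries, 1 in galactose and 1 in dextrose. The HXK1 region had percentiles of 69.7 and 86.3 in galactose and 94.3 in dextrose. In both WT libraries and in no Gal-HO library were 9 of 65 (13.8%), against 8.76% of all regions.

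Between galactose and dextrose, 3 of 65 end regions (4.62%) were in both galactose libraries and not in dextrose, against 3.61% of all regions. One holds HML, the silent copy of mating-type information, with peaks at III 11465 to 14073 and 11689 to 14064 and percentiles of 99.9 and 97.3. No dextrose or auxin peak touched HMLALPHA1 or HMLALPHA2, which share sequence with MAT, where HO cuts, so reads of the copies may not be separable. Beside it, Sen1-AID replicate 1 and WT replicate 1 had a peak in the stretch 14034 to 15244, at percentiles 14.2 and 10.1. The other 2 were the last bases of IV left and the region of YMR317W and ADH6. In dextrose and in neither galactose library there were 3 (4.62%), against 5.46% of all regions. They were MAL33 and MAL31 with TYC1, a region beside YRF1-1, and COS6. With 1 dextrose library these differences have no replicate check.

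Of 259 genes in the windows, 78 had a peak in any library, or 30.1%. This share includes the Y' genes, where 8 of 8 helicase genes and 16 of 25 other reading frames had a peak, and they raise it. Shares in the other subtelomeric families of 5 or more genes lay between 20% and 27.3%, and no family was tested. Of 19 PAU genes 4 did (PAU6, PAU8, PAU9 and PAU14), none of them in a combined mutant. Of 11 COS genes 3 did, in Gal-HO libraries alone, with COS4 in all 3. COS4 starts at VI 6426, and those peaks ended at 6430 and 6549 in galactose and 6538 in dextrose, so they only touched it. Of 10 maltose and isomaltase genes 2 did, MAL33 and MAL31 in dextrose, and of 5 hexose transporter genes HXT17 did. The single flocculin gene had none, and no ribosomal protein gene lies in the windows.

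Replicate lists shared different parts of their end regions. For h1D-h2D Top1-AID both libraries shared 2 of 10 end regions, with the other 8 in replicate 1, and for Sen1-AID 13 of 41, with the other 28 in replicate 1. The h1D-h2D Sen1-AID pair shared 3 of 4, h1D-h2D 28 of 36, Gal-HO galactose 26 of 41 and WT 28 of 42. Outside the windows the shared part was 65.4% for h1D-h2D Top1-AID, 58.9% for Sen1-AID and 82.9% for WT, against 20%, 31.7% and 66.7% of end regions.

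The limit of 20 kb cut between neighbouring regions. Just inside lay YPR195C (19521 bp from its end), JEN1 (19476 bp) and BSC5 (19142 bp), found in 1, 2 and 2 libraries. Just outside lay the HMR region (20131 bp from its end), in 13 libraries, 4 of them combined mutants, then regions of 2 libraries each at 21114 and 21279 bp.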

How the data were processed

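Rad52 chromatin immunoprecipitation libraries of budding yeast were deposited as 1 peak list each, giving the position, name and score of each peak. Scores are in the authors' own unit, deposited without a stated scale. Bowtie2, MACS2 and the build sacCer3 are named per the submitters' processing notes, with no versions. Use of a control library and the handling of reads that match several places are not given in the sources used here. Read depth is unknown, so no interval rests on reads. Exact Clopper-Pearson intervals at 95% on shares of peaks cover counting error only.

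A peak was taken as an end peak if it overlapped by 1 bp or more the outer 20 kb of a nuclear chromosome. Chromosome lengths of sacCer3 were entered by hand, since no file used here lists them. No peak or gene ran past them, but distances to right ends and the count of peaks at the last base of right ends rest on them. Genes came from the RefSeq table of assembly R64, the same assembly, with 6431 nuclear genes. Positions are 1-based. Of 34 listed Y' genes 33 were found. Scores were turned into percentiles within each list. Group comparisons used exact two-sided permutation tests over libraries, and comparisons within libraries used exact sign-flip permutation tests. Regions were peaks of the 11 auxin libraries merged at 1 bp overlap. Their presence was tested over all 853 regions by Fisher's exact test with Benjamini-Hochberg adjustment at 0.05. Adjusted p-values of library measures cover 8 measures in the comparison of mutants, 2 for RNase H and 4 for ends against the rest. Python 3.11.15, numpy 2.4.6, pandas 2.3.3, scipy 1.17.1 and matplotlib 3.10.9 were used.

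The members and lists were chosen with earlier results of these data known. The rule for naming took end regions called by the test, those in all 11 auxin libraries, those in all 7 other auxin libraries and no combined mutant, those in both libraries of a mutant group and no WT library, those in any combined-mutant library and the 10 with the highest mean percentile. It also took every Y' helicase gene and up to 4 members of each other list. Regions lost against WT were named outside that rule, after their values were seen. The left-right comparison, the grouping of Y' genes by length, the edges of peaks at their starts and the other Gal-HO regions were added after the values were seen. The alternatives were windows of 10 and 30 kb, peak midpoints, a stricter score limit, equal list lengths, joined peaks, ends without Y' genes, a replicate block and leaving out each library. The labels do not say whether replicates came from separate cultures, and p-values measure only the spread between these libraries, which may be technical.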

Additional observations from a re-analysis of the deposited data

Results flagged for a closer look

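Single libraries stood far from the rest of their set in 5 measures. Chance would give about 1 such case in 20 sets, a rate that assumes separate measures and no tied values. Among the combined mutants, h1D-h2D Top1-AID replicate 2 had a median end-peak width of 3638.5 bp from 2 peaks. In the same set h1D-h2D Top1-AID replicate 1 covered 7 Y' genes, and the other 3 libraries covered 0. Among the other auxin libraries Sen1-AID replicate 2 was far below the rest in the number of end peaks (13), in their share of the list (2.86%) and in the number of ends with a peak (11). These measures rest on the same peaks and are not separate cases.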

How the results depend on the processing

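The lower number, covered length, ends reached and Y' genes in the combined mutants kept direction under every alternative run, and kept the call with windows of 10 or 30 kb. With lists of 254 peaks the differences were -6.64 peaks, -14.6 kb, -2.62 percentage points of the list, -5.89 ends, 4014.5 bp of distance and -5.36 Y' genes (adjusted p 0.0768 each), and the percentile difference turned to 8.91. With h1D-h2D Top1-AID alone they were -26.3 peaks, -47.3 kb, -3.09 percentage points, -15.5 ends, 3970 bp and -13.5 Y' genes, adjusted p 0.0556 to 0.148, and the percentile turned to 7.78. With h1D-h2D Sen1-AID alone the width difference turned to -385 bp. With scores at or above the pooled median the share differed by -2.69 points (adjusted p 0.0667) and 0 end regions were called. With 30 kb, width turned to -119 bp and percentile to 2.15, and ends differed from the rest by -0.782 peaks per 100 kb and -228 bp of width. Joining peaks turned the percentile to 5.997. With 10 kb, ends differed from the rest by 1.51 points of cover and 2.04 peaks per 100 kb. Density differed by -0.702 with equal lists and -2.51 without Y' ends, where 1 region was called, and 0 were called with equal lists. Leaving out 1 library gave -295 to 526.5 bp of width, -5.84 to 7.28 of percentile, 1407 to 4092 bp of distance, -22.6 to -15.4 peaks and -2.82 to -1.81 points for RNase H, -432 to -190 bp of width against the rest, and 0 to 13 regions. Same-numbered libraries correlated between -0.0907 and 0.310 in their deviations over 15 pairs of groups, so numbers were not taken as pairs. Among h1D-h2D, Sen1-AID and WT, however, all 3 pairs were at 0.273 to 0.310, and replicate 1 had more end peaks in each. With a replicate block 0 regions were called, where the smallest p is 0.00667, and the difference of -27.5 peaks had an adjusted p of 0.0107. Medians could not be computed where a library had no end peak left. Unknown depth limits all counts.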
